A study of Mus musculus with 26 samples.

Results

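The endosomal sorting and SNARE genes are 95 genes, taken as every listed transcript whose symbol begins with Vps, Snx, Stx, Vamp, Chmp or Exoc and a number, together with Snap23, Snap25, Snap29 and Snap47. Of these, 82 were listed for OPCs and 95 for OLs, out of 8530 and 9751 transcripts in all, with 1 transcript for each gene. All 82 of the OPC genes were also listed for OLs, 81 of them with a half-life in all 5 replicates. The other 13 (Exoc1, Snx7, Snx9, Snx15, Snx16, Snx22, Snx29, Snx32, Stx4a, Stx8, Vamp1, Vps13c and Vps37d) were listed for OLs alone, where they lay between 1.88 and 23.3 FPKM at 0 h, and they entered no comparison between the cell types. Snx21 had half-lives in OPCs alone. Snap25, Stx3, Vamp7 and Vamp8 were not analysed here.

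The cells were murine oligodendrocyte progenitor cells (OPCs), obtained from epiblast stem cells of strain 129S/SvEv and kept in medium with bFGF and PDGFA, and oligodendrocytes (OLs), the myelin-forming cells obtained from such OPCs in medium with noggin, IGF-1, cyclic AMP, NT3 and the thyroid hormone T3. Both were given 5-ethynyl uridine (5-EU), a uridine analogue that can be coupled to biotin, for 24 h, the OLs after 40 h of differentiation, and uridine then replaced it. Labelled RNA was pulled down and sequenced at 0, 1, 2, 4 and 6 h of this chase in 3 OPC replicates and 2 OL replicates. The study asked how mRNA decay changes as OPCs become OLs, and gave most attention to the codons for lysine (Lys) and phenylalanine (Phe). The study calls the replicates biological and says that those of OLs correspond to OPC replicates, without saying which.

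Proteins taken up at the cell surface reach the endosome, from which they are either recycled or broken down in the lysosome. The retromer, the retriever and the sorting nexins (Snx) carry cargo back to the surface or the Golgi. The ESCRT complexes (many Vps and Chmp proteins) bud cargo into the endosome for breakdown, and the HOPS and CORVET complexes tether endosomes to each other and to lysosomes. SNAREs (syntaxins, VAMPs and SNAPs) drive the fusion of membranes, and the exocyst tethers vesicles at the cell surface. Oligodendrocytes use this traffic to store and deliver myelin proteins as they wrap axons.

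Levels are given in FPKM, which counts sequenced fragments per kilobase of a transcript after scaling to the mapped fragments of the library. They are thus per length, but they are levels of labelled RNA, and a rank between genes is one of labelled RNA alone. At 0 h the OPC replicates had median levels of 17.3, 18.7 and 20.3 FPKM over the 82 genes and the OL replicates 24.2 and 23.8 FPKM, where the 8177 transcripts listed for both cell types had 18.2, 19.8, 19.2, 18.9 and 20.2 FPKM in the same order. Later time points had been scaled to spiked-in labelled RNA, with 1 factor for each library, so an error in a factor moves every gene of that library together. At 4 h the median share of labelled RNA left over the 82 genes was 42.0%, 20.7% and 53.1% for OPCs and 69.1% and 65.1% for OLs, with OPC replicate 2 below the other OPC replicates. At 6 h it was 13.4%, 9.92% and 17.6% for OPCs and 32.3% and 49.0% for OLs. The number of reads behind a value is unknown. Of 10 OL markers 4 were listed for OPCs and 10 for OLs, with summed levels at 0 h of 45.2 to 71.9 FPKM in OPCs and 3270 and 6870 FPKM in OLs. All 8 OPC markers were listed for both, with summed levels of 1580 to 1740 FPKM in OPCs and 1300 and 1510 FPKM in OLs, and at 0 h 3 were called higher and 3 lower in OLs. Pdgfra stood at 11.5 to 26.5 FPKM in OPCs and 43.9 and 66.9 FPKM in OLs, and Cspg4 at 35.7 to 55.7 FPKM and 29.9 and 30.7 FPKM. None of 5 microglial and 5 pluripotency markers was listed for either. The summed level was 429 to 512 FPKM in OPCs and 675 to 829 FPKM in OLs for the astrocyte markers (5 and 7 of 8 listed), and 100.0 to 205 FPKM and 215 to 228 FPKM for the neuronal ones (6 and 7 of 12). The 4 markers of dividing cells summed to 149 to 285 FPKM in OPCs and 26.6 to 63.9 FPKM in OLs. The part of any of these in the results was not tested, and fewer cells of a type cannot be told apart from less RNA per cell in such samples.

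The study's question about codons can be seen in the coding sequences of the genes that the half-lives below turn on. From each of 4 transcripts the stretch of 30 codons richest in Lys and Phe codons is shown, with the codons AAA (Lys) and TTT (Phe, UUU in the mRNA) in capitals and all others, the synonymous AAG and TTC included, in lower case. Vps18 and Snx1 had higher half-life estimates in OLs, and Vps13a and Vps54 had lower ones. The transcripts lie on GRCm38 at chr2:119288742-119298453 (Vps18, forward strand), chr9:66088133-66124886 (Snx1, reverse strand), chr19:16615686-16780927 (Vps13a, reverse strand) and chr11:21239281-21321136 (Vps54, forward strand), and every stretch is exonic coding sequence, written 5′ to 3′ along the mRNA.
Vps18, codons 781 to 810: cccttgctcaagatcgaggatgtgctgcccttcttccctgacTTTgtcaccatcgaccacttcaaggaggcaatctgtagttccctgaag
Snx1, codons 465 to 494: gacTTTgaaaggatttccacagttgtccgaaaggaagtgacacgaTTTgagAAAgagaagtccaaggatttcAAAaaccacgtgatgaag
Vps13a, codons 101 to 130: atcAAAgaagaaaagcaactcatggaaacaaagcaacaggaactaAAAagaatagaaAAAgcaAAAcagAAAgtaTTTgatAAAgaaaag
Vps54, codons 432 to 461: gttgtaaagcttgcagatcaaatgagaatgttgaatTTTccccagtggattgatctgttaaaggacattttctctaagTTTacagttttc

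The stretch of Vps13a holds 6 AAA and 3 AAG codons, that of Snx1 2 AAA and 4 AAG, and those of Vps18 and Vps54 each 0 AAA and 3 AAG, so the stretches do not separate the genes by the direction of their estimates. Over the whole coding sequence AAA made up 57.2% of the Lys codons of Vps13a, 51.5% of those of Vps54 and 53.7% of those of Snx14, against 38.1% in Snx1, 27.6% in Chmp7 and 25.7% in Vps18.

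Of the 81 genes with a half-life in every replicate, 64 had a higher estimate in OLs than in OPCs and 4 a lower one on the deposited scale, and 23 and 58 did after centring. After centring the median change over all transcripts was itself -0.53. The median half-life of the genes came to 2.39, 2.02 and 3.05 h for OPC replicates 1, 2 and 3 and to 5.70 and 5.62 h for OL replicates 1 and 2. All 8112 transcripts with 5 half-lives had medians of 2.35, 2.08 and 2.83 h, then 4.54 and 4.44 h, so both OL replicates lay above all OPC replicates in the genes and in all transcripts. With limma on log2 half-life, 7 of the 81 genes (8.64%) were called longer in OLs at an adjusted p under 0.05 and 0 were called shorter. Over all transcripts 3.39% were called longer and 0.148% shorter. At an unadjusted p under 0.05 there were 25 of the 81 genes (30.9%) and 23.0% of all transcripts. In 35 of the genes (43.2%) both OL replicates lay above all OPC replicates and in 1, Vps13a, both lay below, where 35.9% and 2.01% of all transcripts did so.

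Much of the difference was shared with all transcripts. The median log2 change in half-life, OL against OPC, was 0.55 over the 81 genes and 0.37 over all transcripts, a distance of 0.18. When each replicate was centred on its own median these became -0.35 and -0.53, and 58 of the 81 genes had a negative change. When all libraries were rescaled to the mean decay curve of the replicates both medians were 0.00, and 40 genes had a positive and 29 a negative change. Centring left 0 of the 7 calls and rescaling left 1, Chmp7. A block on the replicate number that the cell types share left 0 as well, with log2 changes of 1.58 for Chmp7, 1.62 for Snx14 and 1.22 for Vps72 (adjusted p 0.155 each), 1.4 for Snx1 (0.183), 0.68 for Stx5a (0.189), 1.26 for Stx2 (0.207) and 0.8 for Vps26b (0.23), so the changes stayed near their size while the calls were lost. Whether the shared numbers are the true pairs is not known.

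**Figure D1:**
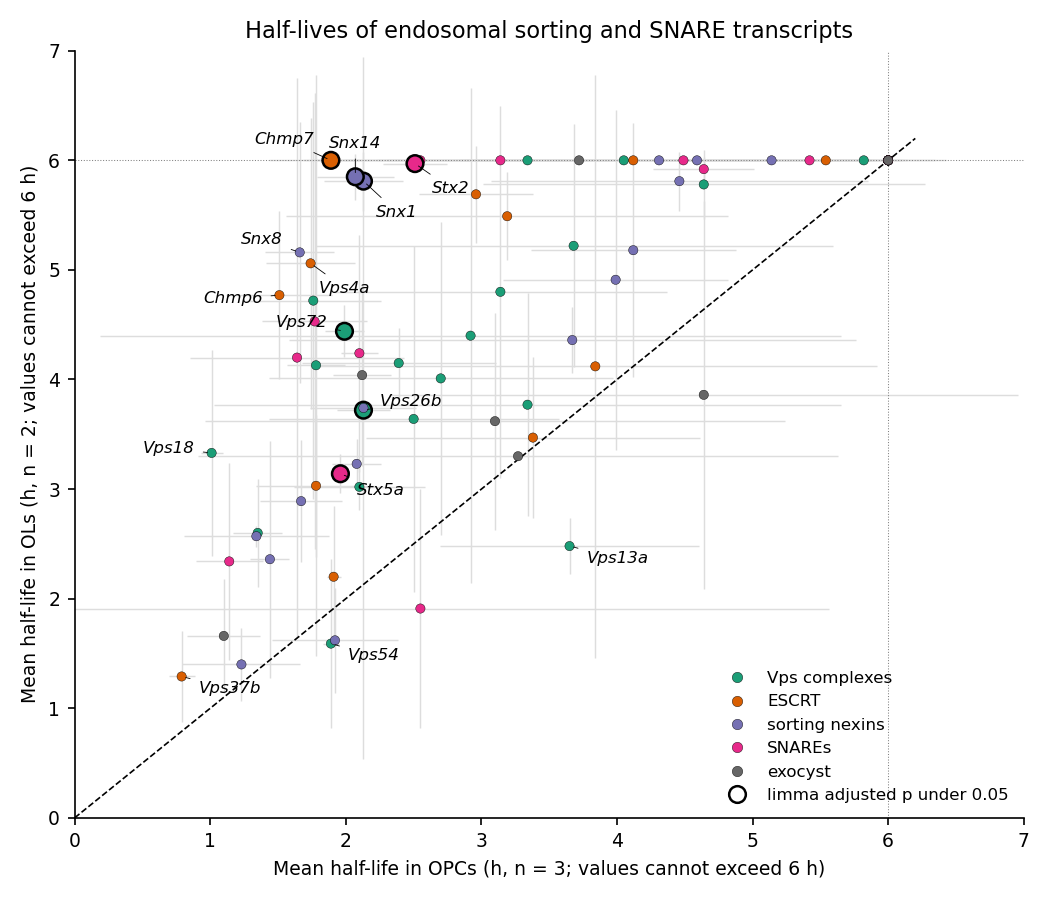
Mean half-life of each of the 81 genes in OPCs (x axis, hours, n = 3) against OLs (y axis, hours, n = 2), with grey bars for 1 SD, colours for gene groups and large outlined points for the 7 genes called longer. Most points lie above the dashed line of equality, Chmp7 at 1.89 h against 6 h, while Vps13a lies below it at 3.65 h against 2.48 h, and points on the dotted lines are at the 6 h ceiling of the half-lives.

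The deposited half-lives cannot exceed 6 h, and they hold a second set of values that many genes share. The fit minimised absolute deviations from an exponential curve, and such a fit can settle on a half-life that depends only on which points lie above the curve and not on how far. With the 1 and 2 h points on one side and the 4 and 6 h points on the other it returns 1.96 h, and with 1 and 4 h against 2 and 6 h it returns 1.86 h. Half-lives within 0.005 h of these values or of 2 others of the same kind (0.76 and 0.704 h) were held by 12 of the 81 genes in OPC replicate 1, 29 in OPC replicate 2, 3 in OPC replicate 3, 0 in OL replicate 1 and 1 in OL replicate 2. Over all transcripts they made up 6.35%, 27.6% and 9.20% of the OPC values and 1.13% and 2.90% of the OL values. OPC replicates that share such a value show no spread between them. With half-lives refitted by least squares, an alternative chosen after the data were seen, 0 of the 81 genes passed limma's test (22 at an unadjusted p under 0.05), and the median change was 0.41 over the genes and 0.29 over all transcripts.

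**Figure D2:**
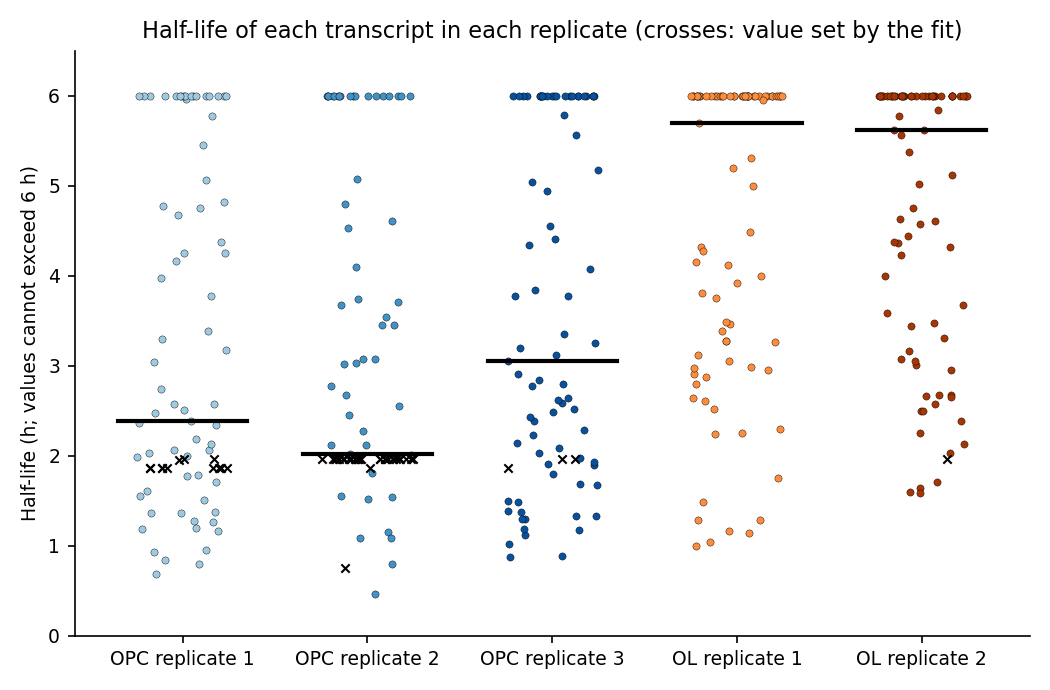
Half-life in hours (y axis) of each of the 81 genes in each replicate, with black bars for the medians and crosses for values that the fit returns whatever the size of the deviations. The crosses form a row at 1.96 h in OPC replicate 2, where 27 genes of the list share that value, and the row of points at 6 h is fuller in the OL replicates, with 39 and 37 genes against 17, 18 and 24 in the OPC replicates.

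Chmp7, an ESCRT-III protein that also acts when the nuclear envelope reseals, had half-lives of 2.06, 1.96 and 1.67 h in OPCs and was at the ceiling in both OL replicates. Its log2 change was 1.67 ± 0.11 (SE, limma adjusted p 0.0246). At 4 h labelled Chmp7 RNA stood at 27.3%, 8.18% and 19.0% of its 0 h level in OPCs and at 77.0% and 75.8% in OLs. The groups were thus far apart at 4 h, while at 1 h they overlapped. Its call was lost without OPC replicate 1 (adjusted p 0.0573), OPC replicate 2 (0.078), OL replicate 1 (0.102) or OL replicate 2 (0.0944), and with least-squares half-lives its change was 1.45 (adjusted p 0.103). Its adjusted p ranged from 0.00413 to 0.155 over all alternatives.

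Among the sorting nexins Snx1 and Snx14 were called. Snx1, a membrane-bending nexin that works with the retromer, had half-lives of 2.47, 1.96 and 1.96 h in OPCs and 6 and 5.62 h in OLs (log2 change 1.46 ± 0.14, SE, adjusted p 0.0396). Snx14, a nexin of the endoplasmic reticulum at contacts with lipid droplets, had half-lives of 1.86, 1.96 and 2.39 h in OPCs and 5.70 and 6 h in OLs (1.51 ± 0.14, adjusted p 0.038). For both, 2 of the 3 OPC values are among those the fit returns whatever the deviations, and the OL values lie at or near the ceiling. At 6 h Snx14 was listed at 0 in all 3 OPC replicates and stood at 22.3% and 83.2% of its 0 h level in OLs. At 4 h it stood at 110%, 0% and 53.6% in OPCs and 61.5% and 86.4% in OLs, which overlap. Its 0 h levels in OPCs were low, at 3.35 to 8.64 FPKM. Snx1 at 4 h stood at 33.5%, 24.0% and 20.6% in OPCs and 94.9% and 61.1% in OLs. Without OL replicate 1 the adjusted p was 0.146 for Snx1 and 0.134 for Snx14, and without OL replicate 2 it was 0.133 and 0.136. The call of Snx1 was also lost without OPC replicate 2 (0.107) or 3 (0.0951) and that of Snx14 without OPC replicate 1 (0.0933) or 2 (0.11). With least-squares half-lives the changes were 1.06 (adjusted p 0.208) and 0.59 (0.498). Over all alternatives the adjusted p ranged from 0.0124 to 0.531 for Snx1 and from 0.0105 to 0.498 for Snx14.

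A pair of syntaxins was called. Stx2, a syntaxin of the cell surface, had half-lives of 2.74, 2.27 and 2.52 h in OPCs and 5.95 and 6 h in OLs (log2 change 1.25 ± 0.09, SE, limma adjusted p 0.028), with none of its OPC values among the shared ones. Stx5a, the syntaxin of traffic through the Golgi, had 1.96 h in all 3 OPC replicates and 3.26 and 3.01 h in OLs (0.68 ± 0.04, adjusted p 0.0222). Its OPC curves were not equal although the half-lives were, with 9.75% of the 0 h level left at 6 h in OPC replicate 1 and a listed 0 in OPC replicates 2 and 3, against 23.3% and 25.1% in OLs. All 3 OPC half-lives behind the small error of Stx5a are thus shared ones. With least-squares half-lives its change was 0.40 (adjusted p 0.139) and that of Stx2 was 0.62 (0.498). The change of Stx2 was 0.35 after centring (-0.53 over all transcripts) and 0.11 on the mean decay curve. The call of Stx5a was lost without OPC replicate 1 (0.0759), 2 (0.0767) or 3 (0.0683), and its adjusted p ranged from 0.0161 to 0.602 over all alternatives. It held without either OL replicate. There the lone OL value is assumed to vary like 3 equal OPC values, so these fits cannot show that the call is stable. Stx2 lost its call without OL replicate 1 (0.117), OL replicate 2 (0.11) or OPC replicate 3 (0.0832), with a range of 0.00743 to 1 over all alternatives.

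The remaining calls were Vps26b and Vps72. Vps26b, a cargo-binding arm of the retromer, had half-lives of 2.34, 1.96 and 2.08 h in OPCs and 3.75 and 3.68 h in OLs (log2 change 0.81 ± 0.09, SE, limma adjusted p 0.0491), all 5 below the ceiling. Vps72, which bears the prefix but is a subunit of chromatin-remodelling complexes and not an endosomal protein, had 1.86, 1.96 and 2.14 h in OPCs and 4.27 and 4.61 h in OLs (1.16 ± 0.08, adjusted p 0.0264). In both genes every OL replicate lay above every OPC replicate. To the digits given, the OPC values of 1.86 and 1.96 h for Vps72 and of 1.96 h for Vps26b equal those that the fit shares. The direction of Vps26b turned to -0.09 after centring (adjusted p 0.842), and that of Stx5a turned to -0.22 (adjusted p 0.602). The median change over all transcripts was -0.53 after centring, so both genes lay above it. The adjusted p of Vps26b was 0.174 without OL replicate 1, 0.166 without OL replicate 2, 0.102 without OPC replicate 2 and 0.126 without OPC replicate 3. That of Vps72 was 0.0909 and 0.0938 without OL replicates 1 and 2 and 0.0659 and 0.0844 without OPC replicates 1 and 2. With least-squares half-lives the changes were 0.59 (adjusted p 0.136) and 0.84 (0.176). Over all alternatives the adjusted p ranged from 0.0198 to 0.875 for Vps26b and from 0.0114 to 0.53 for Vps72.

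**Figure D3:**
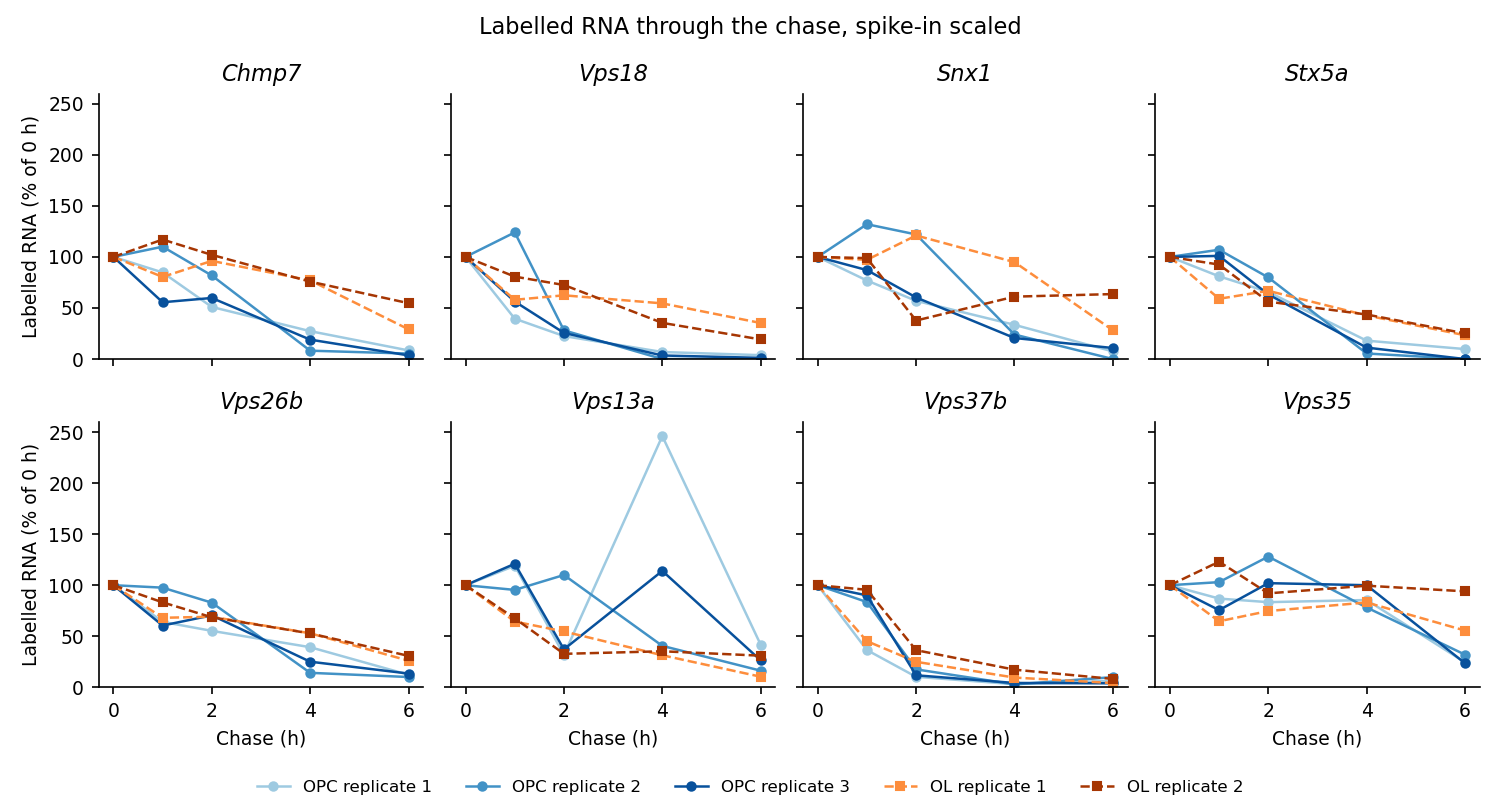
Labelled RNA as a percentage of its 0 h level (y axis) through the chase (x axis, hours) for 8 genes, with a line for each replicate, solid blue for OPCs and dashed orange for OLs. At 4 h Chmp7 and Stx5a are higher in both OL replicates than in the OPC replicates, Vps37b falls fast in both cell types, Vps35 stays high until 4 h, and Vps13a reaches 246% of its 0 h level at 4 h in OPC replicate 1.

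In the HOPS and CORVET complexes, counted here with Vps33b, which pairs with Vipas39 in a complex of its own (8 genes in all), 0 passed the test of half-life, and in 5 both OL replicates lay above all OPC replicates. Over all transcripts 3.39% were called longer, and in 35.9% both OL replicates lay above. The median log2 change of the 8 genes was 0.84, with -0.06 after centring (-0.53 over all transcripts) and 0.10 on the mean decay curve. Vps18, a core subunit with a RING domain, had half-lives of 0.930, 1.09 and 1.02 h in OPCs and 4.00 and 2.67 h in OLs (log2 change 1.69 ± 0.22, SE, adjusted p 0.0565), the highest estimate of the 81 genes. Its adjusted p ran from 0.0501 to 0.158 with 1 replicate left out. The estimate of Chmp7 (1.67) was bounded by the ceiling in both OL replicates. In hours Chmp7 changed by 4.11 and Vps18 by 2.32. Vps39, which marks HOPS, had 2.13, 1.96 and 1.19 h in OPCs and 6 and 3.44 h in OLs (adjusted p 0.178). Its partner Vps41 was at the ceiling in all 5 replicates, so the subunits of HOPS ran in OPCs from Vps18, near 1 h, to the ceiling. Vps8, which marks CORVET, ranged from 2.84 to 6 h in OPCs and had 6 and 5.56 h in OLs, which overlap.

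Among the 10 ESCRT-III and Vps4 genes, Chmp7 alone was called and in 5 the groups lay apart, all longer in OLs on the deposited scale. Over all transcripts 3.39% were called longer and 35.9% lay apart in that direction. The median change of the 10 genes was 0.36 on that scale and -0.54 after centring, where all transcripts had -0.53. Chmp6, which starts the ESCRT-III filament, had half-lives of 1.26, 1.96 and 1.3 h in OPCs and 5.31 and 4.23 h in OLs (log2 change 1.68 ± 0.27, SE, adjusted p 0.075). The ATPases that take the filament apart had unlike estimates, but neither was called. Whether they differ from each other was not tested. Vps4a had 1.36, 1.96 and 1.90 h in OPCs and 4.12 and 6 h in OLs (1.53 ± 0.27, adjusted p 0.0897), where Vps4b had 1.86, 1.96 and 1.93 h and 1.75 and 2.65 h (0.17 ± 0.21, adjusted p 0.725). The OL values of Vps4b thus fell on both sides of its OPC values. Chmp4b and Chmp5 were at the ceiling in all 5 replicates. Chmp2b ranged from 1.86 to 6 h in OPCs and from 2.24 to 6 h in OLs, too wide to place.

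ESCRT-I and ESCRT-II, which act before ESCRT-III, held the shortest-lived gene. Vps37b, an ESCRT-I subunit, had half-lives of 0.688, 0.799 and 0.879 h in OPCs and 1.00 and 1.58 h in OLs, the lowest mean of the 81 genes in either cell type (0.789 ± 0.0963 h, SD, n = 3, and 1.29 ± 0.411 h, SD, n = 2). Its groups lay apart but did not pass the test (adjusted p 0.258). Its paralogue Vps37a had 4.77, 2.45 and 2.91 h in OPCs and 2.95 and 4.00 h in OLs, which overlap. Vps25 of ESCRT-II was at the ceiling in all 5 replicates, and none of the 5 genes tested was called.

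The retromer was split in the same way. Vps35 and Vps29, its backbone, were at the ceiling in all 5 replicates, and the cargo-binding arms Vps26a and Vps26b were not. Vps26a had half-lives of 1.71, 1.96 and 2.64 h in OPCs and 2.87 and 3.16 h in OLs (adjusted p 0.292). In the retriever, a complex of related design, Vps35l had 5.45, 6 and 6 h in OPCs and 6 h in both OL replicates, whereas Vps26c had 1.16, 1.52 and 1.37 h in OPCs and 2.25 and 2.95 h in OLs (log2 change 0.94 ± 0.19, SE, adjusted p 0.103). In both complexes, then, the half-lives of the arm lay below those of the backbone in every replicate. The half-life alone does not separate the cell types at the ceiling. At 6 h Vps35 stood at 24.5%, 32.0% and 23.6% of its 0 h level in OPCs and at 55.6% and 94.0% in OLs, which do not overlap.

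GARP and EARP, which tether vesicles from endosomes at the Golgi or at recycling endosomes, gave no call in 5 genes, and in none did the groups lie apart. Over all transcripts 3.39% were called longer and 35.9% lay apart with longer half-lives in OLs. Vps54, which marks GARP, had 1.86, 1.96 and 1.86 h in OPCs and 1.04 and 2.13 h in OLs (log2 change -0.34 ± 0.36, SE, adjusted p 0.702). All 3 of its OPC values are among those the fit shares. Without OL replicate 2 it was called shorter in OLs, a test in which the lone OL value is assumed to vary like those 3 OPC values. Vps52 was at the ceiling in all 5 replicates, and Vps53 ranged from 0.797 to 6 h within OPCs. Of the lipid-transfer proteins, Vps13a had 4.75, 3.07 and 3.12 h in OPCs and 2.30 and 2.66 h in OLs (-0.53 ± 0.26, adjusted p 0.36), the only gene of the 81 with both OL values below all OPC values. Its level at 4 h was above its 0 h level in OPC replicates 1 (246%) and 3 (114%), at 0 h levels of 2.53 and 6.65 FPKM.

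The 19 sorting nexins with half-lives in both cell types had a median log2 change of 0.43, with 2 called and 8 apart, all longer in OLs. Over all transcripts 3.39% were called longer and 35.9% lay apart in that direction. After centring the median change of the nexins was -0.47, where all transcripts had -0.53. Snx8, a membrane-bending nexin, had half-lives of 1.55, 1.96 and 1.49 h in OPCs and 4.32 and 6 h in OLs (1.62 ± 0.22, SE, adjusted p 0.0604). Of the nexins that pair with Snx1 or stand in for it, Snx5 was at the ceiling in all 5 replicates, Snx6 had 4.38, 3.03 and 4.55 h in OPCs and 3.81 and 6 h in OLs, and Snx2 had 1.86, 1.96 and 2.58 h in OPCs and 1.48 and 6 h in OLs. Snx3, a retromer adaptor, was at the ceiling in all 5 as well. Snx27, which links receptors with PDZ-binding tails to the retromer, had 3.18, 4.80 and 5.79 h in OPCs and 6 h in both OL replicates (adjusted p 0.525). Snx30 was short-lived in both, with 1.61, 0.756 and 1.33 h in OPCs and 1.16 and 1.64 h in OLs.

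Of the SNAREs, 10 syntaxins had a median log2 change of 0.84, with 2 called and 5 apart. Over all transcripts 3.39% were called longer and 35.9% lay apart with longer half-lives in OLs. After centring the median change of the syntaxins was -0.07, where all transcripts had -0.53. Stx16 of the trans-Golgi network had half-lives of 1.95, 3.08 and 2.62 h in OPCs and 6 h in both OL replicates (1.26 ± 0.23, SE, adjusted p 0.092). Stx6, of the same compartment, had 1.96, 2.12 and 2.23 h in OPCs and 5.00 and 3.48 h in OLs (adjusted p 0.0983). Stx12 of recycling endosomes was at the ceiling in all 5 replicates, and Stx7 of late endosomes was at the ceiling in 4 of 5. Stx4a and Stx8, listed for OLs alone, had half-lives at the ceiling in each OL replicate. Vamp3, the VAMP of recycling endosomes, was at the ceiling in all 5, and Vamp2 had 5.06, 4.53 and 4.34 h in OPCs and 6 and 5.84 h in OLs (0.35 ± 0.08, adjusted p 0.122). Of the SNAPs, Snap29 had 2.03, 1.96 and 1.33 h in OPCs and 3.05 and 6 h in OLs (adjusted p 0.196), Snap47 had 2.57, 4.10 and 2.77 h and 6 h in both OL replicates (adjusted p 0.149), and Snap23 had 4.68, 2.78 and 6 h and 6 h in both (adjusted p 0.576). No VAMP or SNAP passed the test.

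Half-lives of the exocyst varied widely between OPC replicates, where the median over its genes was 2.36, 1.96 and 5.56 h, against 3.28 and 4.63 h for OLs. None of its 7 genes was called, and only in Exoc3 did the groups lie apart, where 35.9% of all transcripts lay apart with longer half-lives in OLs. Exoc3 had half-lives of 2.36, 1.96 and 2.03 h in OPCs and 3.46 and 4.63 h in OLs (log2 change 0.92 ± 0.18, SE, adjusted p 0.0958). Exoc4 was at the ceiling in all 5 replicates, and Exoc8 was the shortest-lived exocyst gene, at 0.845, 1.09 and 1.38 h in OPCs and 1.29 and 2.03 h in OLs. Exoc7 had 6, 2.67 and 2.49 h in OPCs and 6 h in both OL replicates.

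In all, 13 of the 81 genes (16.0%) were at the ceiling in every replicate, as were 16.1% of all transcripts. Among them were Chmp4b, Chmp5, Exoc4, Snx3, Snx5, Stx12, Vamp3, Vps25, Vps29, Vps35, Vps41 and Vps52. In OLs 28 of the 81 were at the ceiling in both replicates, and in OPCs 13 were at it in all 3. The order of half-lives was much alike between replicates, with Spearman's rho across the 81 genes of 0.662 to 0.739 within OPCs and 0.613 within OLs, given as a description of points that share libraries.

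At 0 h, after 24 h of labelling, 16 of the 82 genes (19.5%) were higher in OLs by limma on log2(FPKM + 1) at an adjusted p under 0.05, and 0 were lower. Over all transcripts 13.8% were called higher and 15.8% lower. In 37 of the genes (45.1%) both OL replicates lay above all OPC replicates and in 7 (8.54%) both lay below, where 28.0% and 31.4% of all transcripts did so. The median log2 change was 0.42 over the 82 genes and -0.01 over all transcripts, and after centring it was 0.39 and -0.04. The 16 genes fell in many of the groups: 4 sorting nexins, 3 syntaxins, 2 each of HOPS and CORVET, of ESCRT-I and ESCRT-II and of ESCRT-III with Vps4, and 1 each of the Vps13 genes, the SNAPs and the exocyst.

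Snx30, a partner of Snx4 in recycling, showed the largest rise of the 82 genes. Its level was 1.76, 4.08 and 1.78 FPKM for OPCs and 28.3 and 20.6 FPKM for OLs, 7.42-fold higher on the scale of FPKM + 1 (log2 change 2.89 ± 0.32, SE, limma adjusted p 0.000635). Snx18, a nexin with an SH3 domain that acts in endocytosis and autophagy, had 25.9, 34.2 and 28.5 FPKM in OPCs and 164 and 97.6 FPKM in OLs (2.07 ± 0.28, adjusted p 0.0015). For both, each OL replicate was well above each OPC replicate, and half-lives were short and overlapped between the cell types. Snx14 had 3.35, 8.64 and 6.83 FPKM in OPCs and 13.4 and 14.4 FPKM in OLs (1.11 ± 0.34, adjusted p 0.0408), and Snx2 had 10.6, 14.1 and 15.3 FPKM and 28.0 and 22.5 FPKM (0.88 ± 0.24, adjusted p 0.0289). Snx5, a partner of Snx1, had the highest level of labelled RNA among the nexins in OPCs, at 131 to 141 FPKM. It had 100.0 and 84.8 FPKM in OLs, below all OPC values, which did not pass the test (-0.54 ± 0.21, adjusted p 0.0844).

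Of the syntaxins, Stx7, which mediates fusion of late endosomes, had 21.7, 21.7 and 22.9 FPKM in OPCs and 78.5 and 55.7 FPKM in OLs (log2 change 1.54 ± 0.23, SE, limma adjusted p 0.00249). Stx2 had 7.57, 4.67 and 8.39 FPKM in OPCs and 21.3 and 15.3 FPKM in OLs (1.31 ± 0.29, adjusted p 0.0124). Stx5a had 27.9, 20.9 and 24.0 FPKM in OPCs and 44.6 and 38.1 FPKM in OLs (0.75 ± 0.23, adjusted p 0.0397). All 3 were higher in both OL replicates than in any OPC replicate. Snap29, a SNAP of the autophagosome, had 8.87, 8.33 and 10.8 FPKM in OPCs and 17.6 and 15.8 FPKM in OLs (0.79 ± 0.22, adjusted p 0.03). Snap23 overlapped between the cell types (9.64 to 19.3 FPKM in OPCs, 17.4 and 27.9 FPKM in OLs, adjusted p 0.124), as did Snap47 (43.1 to 66.6 FPKM and 66.6 and 69.0 FPKM, adjusted p 0.465). Among the SNAREs of the list Vamp3 had the highest level of labelled RNA, at 89.9 to 110 FPKM in OPCs and 81.0 and 107 FPKM in OLs (adjusted p 0.789). Vamp2 had 17.7 to 23.6 FPKM in OPCs and 24.5 and 28.5 FPKM in OLs (adjusted p 0.203).

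In the ESCRT groups Vps37a had 6.84, 14.5 and 13.0 FPKM in OPCs and 31.9 and 29.4 FPKM in OLs (log2 change 1.41 ± 0.32, SE, limma adjusted p 0.0134). Vps37b had 30.4, 28.1 and 24.5 FPKM in OPCs and 83.6 and 59.5 FPKM in OLs (1.32 ± 0.24, adjusted p 0.00589). Both paralogues thus stood higher in OLs, and Vps37c overlapped (3.63 to 10.2 FPKM and 8.17 and 12.3 FPKM, adjusted p 0.224). Chmp5 had 34.6, 47.8 and 43.1 FPKM in OPCs and 127 and 85.9 FPKM in OLs (1.31 ± 0.26, adjusted p 0.00857), and Chmp2b, a core ESCRT-III protein, had 7.22, 6.86 and 4.67 FPKM and 15.7 and 16.4 FPKM (1.25 ± 0.24, adjusted p 0.00769). Chmp4b, the main filament protein, had 59.8, 42.1 and 47.5 FPKM and 86.5 and 76.1 FPKM, just short of the threshold (adjusted p 0.0545). Chmp6 and Chmp7 pointed the other way, with 38.3, 26.7 and 38.3 FPKM in OPCs and 19.3 and 23.6 FPKM in OLs for Chmp6 (-0.65 ± 0.25, adjusted p 0.0831) and 40.5, 36.8 and 47.6 FPKM and 29.4 and 31.0 FPKM for Chmp7 (-0.44 ± 0.22, adjusted p 0.16). Neither passed the test.

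Of the tethers, Vps39 had 10.3, 10.0 and 11.1 FPKM in OPCs and 25.1 and 23.9 FPKM in OLs (log2 change 1.15 ± 0.20, SE, limma adjusted p 0.00531), and Vps41 had 27.2, 36.9 and 28.4 FPKM and 54.0 and 58.3 FPKM (0.86 ± 0.23, adjusted p 0.0258). These are the subunits that mark HOPS. Of the 8 genes counted with HOPS and CORVET 6 had a higher estimate in OLs, with the same count after centring, and Vps39 and Vps41 alone passed the test. Vps33a had 23.2, 15.3 and 18.7 FPKM in OPCs and 30.6 and 29.1 FPKM in OLs, which do not overlap (adjusted p 0.0776). Whether subunits differ from each other was not tested. Exoc6b of the exocyst had 9.90, 10.2 and 8.86 FPKM in OPCs and 22.2 and 19.7 FPKM in OLs (1.04 ± 0.21, adjusted p 0.00887). Exoc4 (37.7 to 45.0 FPKM and 57.7 and 65.3 FPKM) and Exoc3 (14.6 to 17.9 FPKM and 21.9 and 24.2 FPKM) also lay apart but did not pass (adjusted p 0.0832 and 0.112), and Exoc7 overlapped (adjusted p 0.577). Vps13b had 6.33, 12.6 and 8.52 FPKM in OPCs and 20.4 and 23.0 FPKM in OLs (1.21 ± 0.29, adjusted p 0.0174). In the retromer no subunit was called, with 57.8, 61.0 and 64.7 FPKM in OPCs and 109 and 77.2 FPKM in OLs for Vps35 (adjusted p 0.0956).

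**Figure D4:**
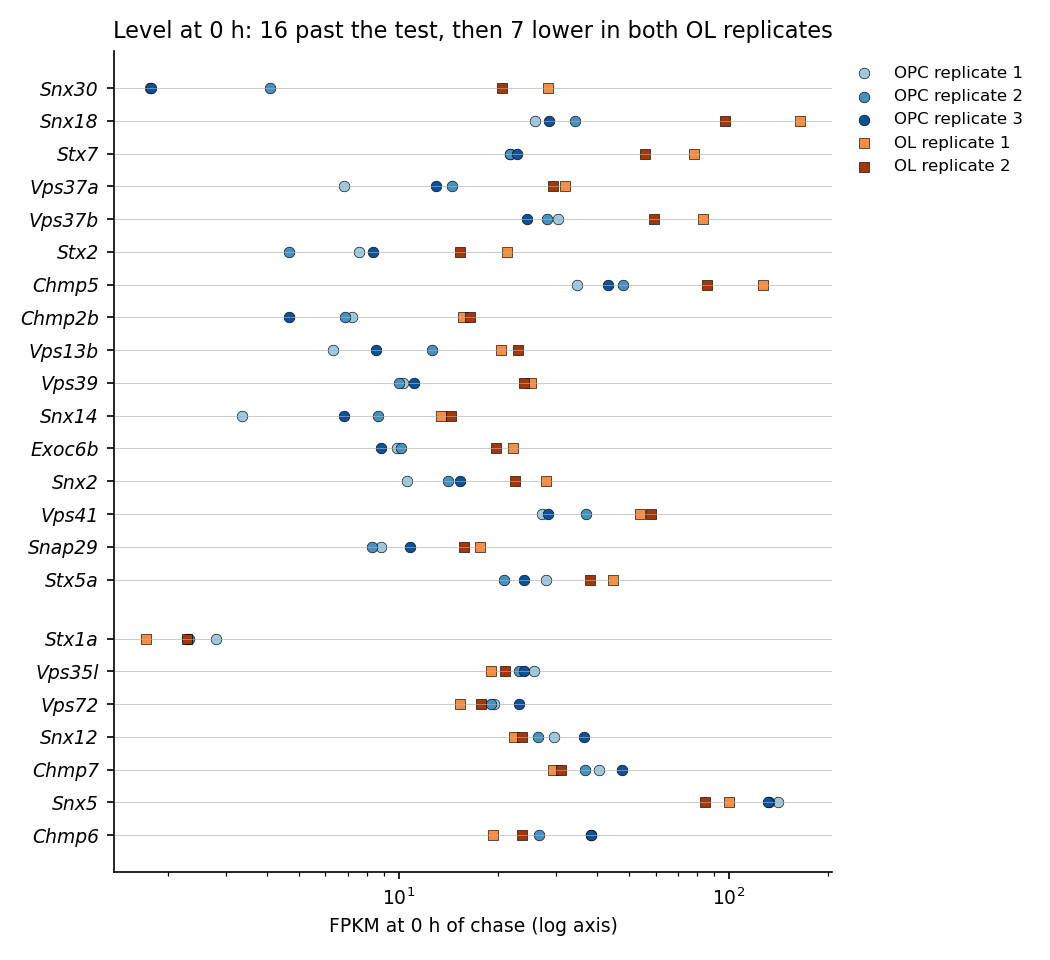
Level at 0 h of chase (x axis, FPKM on a log axis) of the 16 genes that passed the test, all higher in OLs, and below them the 7 genes with both OL replicates under all OPC replicates, with a circle for each OPC replicate and a square for each OL replicate. Snx30 shows the widest gap, from 1.76 to 4.08 FPKM in OPCs to 20.6 and 28.3 FPKM in OLs, and none of the lower 7 passed the test.

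The rise of Snx30, Snx18, Stx7 and Vps39 at 0 h passed the threshold without any 1 of the 5 replicates, with adjusted p of at most 0.0155, 0.0193, 0.0322 and 0.0496. Without OL replicate 1 these were the only calls, and the adjusted p became 0.0619 for Vps37b, 0.0819 for Chmp5 and 0.111 for Stx2, which kept their calls without any other replicate. Vps37a and Chmp2b lost theirs without OL replicate 1 (adjusted p 0.102 and 0.0575) or OL replicate 2 (0.0743 and 0.0564), and Exoc6b without OL replicate 1 or OPC replicate 3 (at most 0.0731). Vps13b, Snx14, Snx2 and Vps41 lost it without OL replicate 1, OL replicate 2 or OPC replicate 3 (at most 0.109, 0.178, 0.177 and 0.128), and Snap29 and Stx5a also without OPC replicate 2 (at most 0.158 and 0.202). With the block on replicate number Snap29, Stx5a and Vps41 lost their calls. Of the 16 genes 3 were also called in half-life (Snx14, Stx2 and Stx5a). The half-lives are fitted to levels relative to the same 0 h libraries, so the measures are not independent.

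Through the chase most of the genes fell within each cell type. By limma, fitting log2(FPKM + 1) against hours of chase, 70 of 82 genes (85.4%) fell in OPCs and 0 rose, where 81.4% of all transcripts fell and 4.31% rose. In OLs 57 of 95 (60.0%) fell and 0 rose, where 64.7% and 0.779% of all did. Each library counted as a sample in these fits, although the 5 libraries of a replicate are 1 time course. Their p-values thus rest on more samples than there are replicates. Median slopes over the genes were -0.39 log2 units per h for OPCs and -0.20 for OLs, and over all transcripts -0.38 and -0.20. The slopes are those of the spike-in scale. When each library was rescaled to the 0 h median, 19 genes fell and 26 rose in OPCs, and 8 fell and 29 rose in OLs. That rescaling puts the median slope of all transcripts at -0.02 and 0.01, so these counts are relative to the other transcripts and the balance of rises and falls is set by the scale. The steepest fall in OPCs was that of Stx5a (-0.74 ± 0.07 log2 units per h, SE, limma adjusted p 3.95e-08), and in OLs it was that of Vps37b, at -0.64 ± 0.05. Such slopes are bounded by the 0 h level and the pseudocount of 1 where a gene is listed at 0. By half-life Vps37b was the shortest-lived in both cell types, with means of 0.789 h in OPCs and 1.29 h in OLs. The 12 genes without a call in OPCs were Chmp2a and the genes at the half-life ceiling in all 5 replicates other than Stx12 and Vps35.

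The slope itself was compared between the cell types from 1 slope for each replicate. It was less steep in OLs for 24 of 82 genes (29.3%) and steeper for 0 by limma at an adjusted p under 0.05, where 23.7% of all transcripts were less steep and 0.0856% steeper. The groups lay apart in 52 genes with the OL slopes less steep (63.4%) and in 2, Snx18 and Snx30, with steeper OL slopes, against 50.9% and 3.27% of all transcripts. Snx30 stood at 1.76 to 4.08 FPKM at 0 h in OPCs and was listed at 0 at 4 h in OPC replicates 2 and 3, where a pseudocount of 1 bounds the slope. With a pseudocount of 0.1, 1 of the 20 sorting nexins had a steeper estimate in OLs, against 2 with 1. The median difference was 0.19 log2 units per h over the genes and 0.14 over all transcripts, a distance of 0.04. After rescaling each library to the 0 h median these were 0.00 and -0.03, and 0 genes were called (21 at an unadjusted p under 0.05). Without OL replicate 1 or without OL replicate 2, 0 genes were called as well (28 and 19 at an unadjusted p under 0.05). With a pseudocount of 0.1 in place of 1 there were 5 calls.

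Snx8 had slopes of -0.532, -0.728 and -0.675 log2 units per h for OPCs and -0.116 and -0.156 for OLs, a difference of 0.51 ± 0.08 (SE, limma adjusted p 0.00378). Vps4a had -0.401, -0.843 and -0.614 in OPCs and -0.231 and -0.089 in OLs (0.46 ± 0.11, adjusted p 0.0156). Chmp7 had -0.541, -0.735 and -0.673 and -0.244 and -0.161 (0.45 ± 0.08, adjusted p 0.00603). In each, OPC replicate 2 was steepest and both OL slopes were shallow. Stx5a (0.43), Snx1 (0.42), Vps11 (0.39), Chmp6 (0.38), Vps18 (0.37), Vps39 (0.35) and Snx25 (0.34) followed. Of the 8 genes counted with HOPS and CORVET 4 (Vps11, Vps16, Vps18 and Vps39) were among the 24, where 23.7% of all transcripts were called less steep. Whether this group differs from the other genes was not tested. Of the 7 genes with a longer half-life, Chmp7, Snx1, Stx5a and Vps72 were also called in slope, and Snx14 (adjusted p 0.0609), Vps26b (0.0848) and Stx2 (0.705) were not. The slope of Stx2 was -0.222, -0.382 and -0.276 in OPCs and -0.245 and -0.248 in OLs, which overlap. At 6 h the share left of Stx2 overlapped too, at 13.0% to 29.1% of its 0 h level in OPCs and 24.8% and 30% in OLs. Half-lives and slopes come from the same libraries and are not independent.

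Other genes of the same traffic were taken from a list of 64 (further ESCRT subunits and their partners, HOPS and retriever partners, the remaining SNAREs with their regulators, and sorting receptors), of which 51 could be tested. In half-life 1 was longer in OLs and 0 shorter. It was Scfd1, the Sec1-type partner of Stx5a, with 1.86, 1.96 and 1.86 h in OPCs and 5.05 and 6 h in OLs (log2 change 1.54 ± 0.09, SE, limma adjusted p 0.0203), where all 3 OPC values are shared ones. At 0 h 3 were higher in OLs (Ptpn23, Stam and Stam2, which act with the early ESCRT complexes) and 2 lower (Ccdc22 of the retriever's partner complex and Igf2r). Stam had 5.79, 12.6 and 10.9 FPKM in OPCs and 33.5 and 32.7 FPKM in OLs (1.73 ± 0.31, adjusted p 0.00604). Igf2r, the receptor that carries lysosomal enzymes marked with mannose 6-phosphate, fell by 1.83 on the log2 scale (adjusted p 0.000635), and the other such receptor, M6pr, had a change of -0.20 (adjusted p 0.558). In slope 15 were less steep in OLs and 0 steeper. Over all transcripts 3.39% were longer in half-life, 13.8% higher and 15.8% lower at 0 h and 23.7% less steep. The medians over the 51 were 0.52 for the change in half-life, 0.28 for that at 0 h and 0.18 for that in slope.

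Codon use of the 95 genes was near that of all transcripts. AAA made up a median of 36.8% of their Lys codons and UUU 45.5% of their Phe codons, with 59.9% G+C at the last codon position (GC3) and 437 codons in length, against 37.5%, 44.4%, 60.6% and 467 codons over 10090 transcripts. The 7 genes with a longer half-life had medians of 38.1% AAA and 40.9% UUU and ranged from 16.7% AAA (Vps72) to 53.7% (Snx14). The 13 genes at the ceiling in all replicates had medians of 36.1% and 50.0%. Over the 95 genes the share runs from 0 to 61.1% AAA.

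Across the 81 genes, Spearman's rho between the change in half-life and GC3 was 0.381, and it was -0.284 for the AAA share and -0.363 for the UUU share. Over all transcripts it was 0.268, -0.218 and -0.211 (8101, 8090 and 8068 transcripts). These are descriptions of points that share libraries, and GC3 and the codon shares are linked by how they are counted. Within replicates the rho between half-life and the AAA share over the 81 genes was 0.142, -0.0365 and 0.225 in OPCs and -0.26 and 0.00879 in OLs. Over these genes the OL replicates differed, and only OL replicate 1 lay below all OPC replicates. Over all transcripts the rho was 0.0268, -0.0828 and 0.0369 in OPCs and -0.264 and -0.115 in OLs. There both OL replicates lay below all OPC replicates. When the 81 genes were divided into 3 parts of 27 by AAA share, both OL half-lives lay above all OPC half-lives in 17, 8 and 10 genes from the lowest part to the highest, and the median log2 change was 0.86, 0.24 and 0.40. Over all transcripts, not divided, both lay above in 35.9% and the median change was 0.37. The middle part had the longest OPC half-lives, with medians of 4.25, 4.8 and 6 h. Half-lives cannot exceed 6 h, and the part of this ceiling in the changes was not tested. In the parts 3, 1 and 3 genes were called longer, where 3.39% of all transcripts were. Single genes did not follow the order of AAA shares. Vps18 (25.7% AAA) had a change of 1.69 and Vps13a (57.2%) one of -0.53, whereas Vps4a (45.0%) and Snx14 (53.7%) had 1.53 and 1.51 and Snx18 (27.0%) had -0.25.

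**Figure D5:**
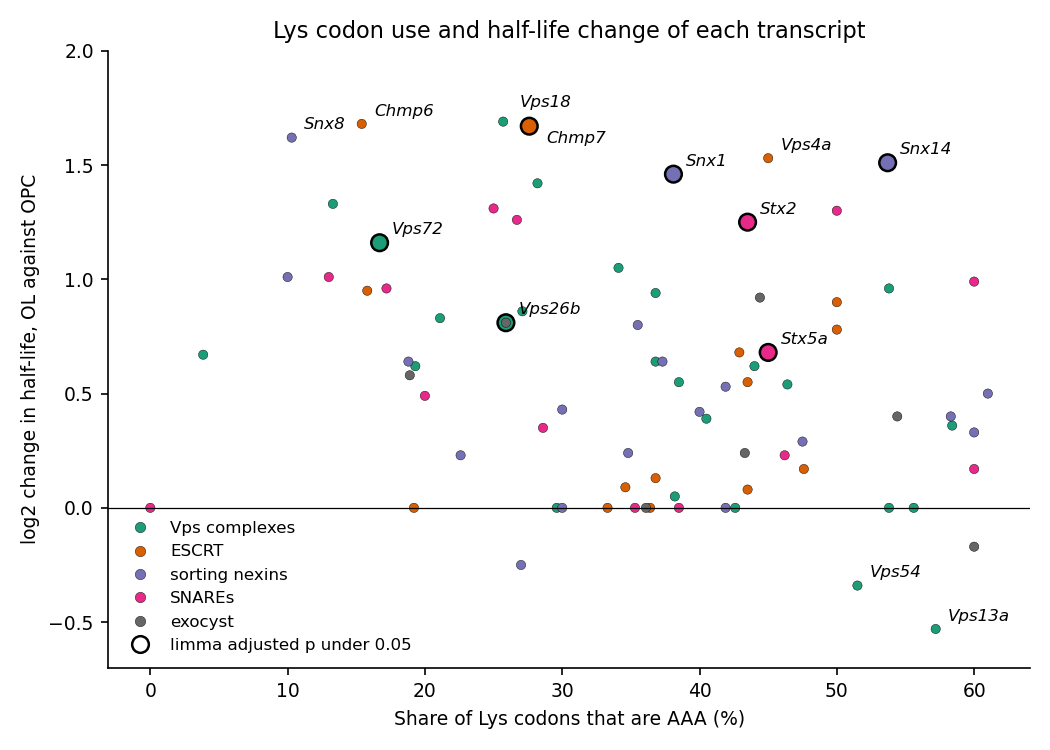
Share of Lys codons that are AAA (x axis, percent) against the log2 change in half-life, OL against OPC (y axis), for the 81 genes, with colours for gene groups and large outlined points for the 7 genes called longer. Vps18, Chmp6 and Chmp7 (25.7%, 15.4% and 27.6% AAA) stand at the top and Vps13a (57.2%) at the bottom. Snx14 (53.7%) also lies among the highest points, and the cloud is wide at every share.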

How the data were processed

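Labelled RNA was measured by 5-EU pulldown and sequencing in 25 libraries, 5 time points each of 3 OPC and 2 OL replicates. An OPC control without biotin was not analysed here. The deposited values are FPKM, which the authors made with HISAT2 2.1.0 and StringTie 1.3.5 on GRCm38, keeping 1 coding transcript per gene of at least 1 FPKM at 0 h and scaling the later time points to spiked-in labelled RNA. For each replicate the authors had fitted half-lives (hours) by least absolute deviations to FPKM relative to 0 h, with a ceiling of 6 h, and a refit gave the same value within 0.01 h for nearly all. The depth of the libraries is not given in the sources used here. Log2 half-lives, log2(FPKM + 1) at 0 h and slopes over the chase were compared with limma 3.58.1 in R 4.3.3 on all transcripts, with Benjamini-Hochberg adjustment, and the steps were tested on simulated data. Coding sequences were taken from GENCODE M21 on GRCm38 and matched all 95 genes. The genes named were those past a test (the 10 with the largest change where there were over 15), those with the 5 largest changes each way and groups apart, those with the 3 lowest and highest half-lives, and a set list of 23 genes, of which 4 were not analysed here. Others named in the groups were chosen after their values were seen. The genes and lists were chosen with earlier results of these data known. Alternatives were another pseudocount, a minimum of 5 FPKM, centring, rescaling, refitted half-lives, a replicate block and leaving out each replicate. Some sequences and values are not reported here.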

Additional observations from a re-analysis of the deposited data

Results flagged for a closer look

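For 24 of the genes the slope of decline differed between the cell types by limma's test of the difference itself, and in each of them the slope was less steep in OLs. They are 29.3% of the 82 genes, where 23.7% of all 8177 transcripts were called less steep, so the count lies near the share of all transcripts. Per hour of chase, the OL slope exceeded the OPC slope by 0.51 log2 units for Snx8, 0.46 for Vps4a, 0.45 for Chmp7, 0.43 for Stx5a, 0.42 for Snx1, 0.39 for Vps11 and 0.38 for Chmp6. The difference was 0.37 for Vps18, 0.35 for Vps39, 0.34 for Snx25, 0.34 for Snx21, 0.32 for Vps72, 0.31 for Snx4, 0.30 for Vps16 and 0.30 for Stx18. It was 0.29 for Stx16, 0.29 for Snx6, 0.28 for Vps9d1, 0.28 for Vps13d, 0.26 for Vamp2, 0.25 for Exoc3, 0.25 for Exoc2, 0.24 for Snx11 and 0.23 for Snx19. None of these calls held without OL replicate 1, without OL replicate 2, or with each library rescaled to its 0 h median. With a pseudocount of 0.1 Chmp7, Snx11, Snx21 and Stx18 were called among the 24, and Vps33b beside them.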

How the results depend on the processing

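Of 81 genes tested in half-life, 7 were longer in OLs. There were 0 after centring each replicate, 1 on the mean decay curve, 0 with least-squares half-lives, 11 on the scale of hours and 0 with a replicate block. Leaving out 1 replicate at a time (a lone OL replicate is then assumed to vary like the OPC replicates) gave 1 to 6 longer and 0 to 1 shorter. At 0 h it gave 4 to 21 genes higher in OLs, where the full data gave 16, and 0 to 1 lower. The change in half-life reversed after centring for Stx5a (-0.22) and Vps26b (-0.093), where the median over all transcripts was -0.53. With each library rescaled to the 0 h median, 26 genes rose and 19 fell in OPCs, and 29 rose and 8 fell in OLs. Without the 6 h libraries 32 fell in OLs, where 57 did with them. Of 24 genes with less steep slopes in OLs, the count became 5 with a pseudocount of 0.1, 0 with libraries rescaled to the 0 h median, 10 without the 6 h libraries and 0 to 26 without 1 replicate, with 0 to 1 steeper. One fit of 25 libraries, which counts each library as a sample and so overstates the replication, gave 34 less steep and 1 steeper. The cause was not tested. The study says that the OL replicates match OPC replicates but not which. Same-numbered replicates did not deviate together (half-life, r of -0.00162 and -0.105), a weak check with 2 OL replicates, so the numbers were not taken as pairs. The replicate block gave 15 genes higher at 0 h (without Snap29, Stx5a and Vps41, with Snx13 and Vps37c) and 25 with less steep slopes (without Exoc3, Snx11 and Snx19, with Chmp3, Snx14, Vps33a and Vps33b). Of the alternatives to the named genes' values, 207 kept the direction and the side of the threshold, 62 lost and 2 gained significance, and 2 reversed. The 207 include values that had no call in the full data and stayed without one. The number of reads is unknown, and the half-life ceiling of 6 h hides differences among stable transcripts.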
